A study of Mus musculus with 6 samples.

Results

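The genes described here are 6 transcription factors (Snai1, Snai2, Twist1, Twist2, Zeb1 and Zeb2) and 3 cadherins (Cdh1, Cdh2 and Cdh11), chosen by name as the best known regulators and adhesion molecules of the epithelial-to-mesenchymal transition (EMT). The choice was made with earlier results of these data known. They are 9 of the 19340 gene names in the deposited table, and all 9 were among the 13819 genes analysed. RNA was sequenced from mesoderm progenitor cells of C57BL/6 mouse embryos, in a study of how growth factors affect the specification of these cells. There were 6 libraries, 1 per condition: cells left untreated for 0 h or 96 h, a pair given recombinant BMP4 (5 h and 11 h), 1 given BMP4 and FGF8 together (5 h) and 1 given BMP4 and FGF4 together (11 h). Treatment began once a culture was 96 h old, and the labels accordingly give 101 h and 107 h as the culture age of the 5 h and the 11 h libraries. All cultures stood on wild type mouse embryonic fibroblasts, a feeder layer treated with mitomycin C to stop its division, in DMEM with serum, and the labels do not say whether these feeder cells were removed before RNA extraction. No untreated library of 101 h or 107 h was analysed here. With 1 library per condition no difference below has a replicate check or a test, and every interval covers counting error only.

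In EMT, cells of an epithelium loosen their junctions and become migratory, as happens when mesoderm leaves the primitive streak and the tailbud. Snai1 and Snai2 are zinc finger repressors that bind E-boxes in the promoter of Cdh1, the gene of the epithelial adhesion molecule E-cadherin. Zeb1 and Zeb2 are zinc finger homeodomain repressors with similar sites, while Twist1 and Twist2 are basic helix-loop-helix factors of embryonic mesenchyme. Cdh2 (N-cadherin) and Cdh11 (mesenchymal cadherin) are adhesion molecules of neural and mesodermal cells, and a switch from Cdh1 to Cdh2 is a textbook sign of EMT.

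Promoter sequence from RefSeq (GRCm38.p6) is shown for Snai1, because human SNAI1 is known to bind an E-box in its own promoter. It is also shown for Twist1 and Twist2, because their RNA levels were called higher and lower together in 2 of the 7 comparisons. Both comparisons share the 96 h library. Snai2 was called with them in each, but the sources used here hold no promoter entry for it. Each window runs from 250 bases before to 50 bases after the annotated start and lies on the plus strand, at chr2:167537945-167538244 for Snai1, chr12:33957421-33957720 for Twist1 and chr1:91801211-91801510 for Twist2. Capitals mark the 6 letters of the Snail-type E-box, CACCTG or its reverse complement CAGGTG.
Snai1: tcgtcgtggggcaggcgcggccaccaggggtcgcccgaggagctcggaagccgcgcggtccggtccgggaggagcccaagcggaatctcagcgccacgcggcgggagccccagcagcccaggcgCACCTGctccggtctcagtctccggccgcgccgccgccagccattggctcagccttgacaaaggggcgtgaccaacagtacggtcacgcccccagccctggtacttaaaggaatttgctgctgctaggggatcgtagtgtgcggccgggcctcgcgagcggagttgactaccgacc
Twist1: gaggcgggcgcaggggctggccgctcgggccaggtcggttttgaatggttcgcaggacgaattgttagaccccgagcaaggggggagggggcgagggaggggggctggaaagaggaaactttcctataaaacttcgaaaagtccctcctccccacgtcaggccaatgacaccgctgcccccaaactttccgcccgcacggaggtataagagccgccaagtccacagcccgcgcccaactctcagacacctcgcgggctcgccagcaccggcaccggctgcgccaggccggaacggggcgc
Twist2: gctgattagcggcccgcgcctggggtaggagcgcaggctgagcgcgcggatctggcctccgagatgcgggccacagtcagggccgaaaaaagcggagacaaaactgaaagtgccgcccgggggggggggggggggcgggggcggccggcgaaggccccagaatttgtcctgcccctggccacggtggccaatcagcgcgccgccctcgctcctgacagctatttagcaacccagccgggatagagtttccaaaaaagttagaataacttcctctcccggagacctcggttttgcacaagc
The Snai1 window holds 1 such match, which begins 126 bases before the start, and neither Twist window holds one. Of 27025 mouse promoters of the same length, 20% hold CACCTG or CAGGTG. The wider pattern CANNTG, which includes both, occurs in 72.1% of these promoters, is found in the Snai1 window only at the marked match, and is not in either Twist window. These are matches of letters and say nothing about binding.

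Levels are given in CPM, the library-scaled counts of edgeR, and a gene was called higher or lower in a pair of libraries where the ratio after adding 0.5 CPM to both was at least 2-fold and the exact 95% counting interval of the plain ratio excluded 1. Total counts ranged from 179196459 to 272743104 per library, and the 9 genes had between 884 and 32151 counts each. Before any result, the libraries need a description, since they did not order by their labelled time in culture. The BMP4 5 h and the BMP4 with FGF8 5 h libraries differed 2-fold from the 0 h library at 0.369% and 0.275% of genes, and from the 96 h library at 5.43% and 5.53%. By the same measure the BMP4 with FGF4 11 h library differed from 96 h at 1.19% and from 0 h at 7.11% of genes. The BMP4 11 h library lay between, at 2.42% and 3.57%. Why the libraries labelled 101 h resembled the 0 h library was not tested. The comparison of the BMP4 5 h library with 96 h is therefore given beside its values against 0 h.

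The labelled cell type was checked with markers of tailbud and presomitic mesoderm. At 0 h the T-box genes T and Tbx6 stood at 84.2 and 41.2 CPM and Msgn1 at 23.4 CPM. At 96 h the same genes stood at 7.74, 0.592 and 0.153 CPM, so that Tbx6 and Msgn1 were nearly absent from that library while T was lower but present. The summed level of the 10 placed tailbud markers of 12 listed was 326.6 CPM at 0 h, 18.4 CPM at 96 h, 293.03 CPM with BMP4 and 289.5 CPM with BMP4 and FGF8 at 5 h, 142.1 CPM with BMP4 at 11 h and 34.0 CPM with BMP4 and FGF4 at 11 h. In bulk RNA, fewer cells of a type and less RNA per cell cannot be told apart.

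**Figure D1:**
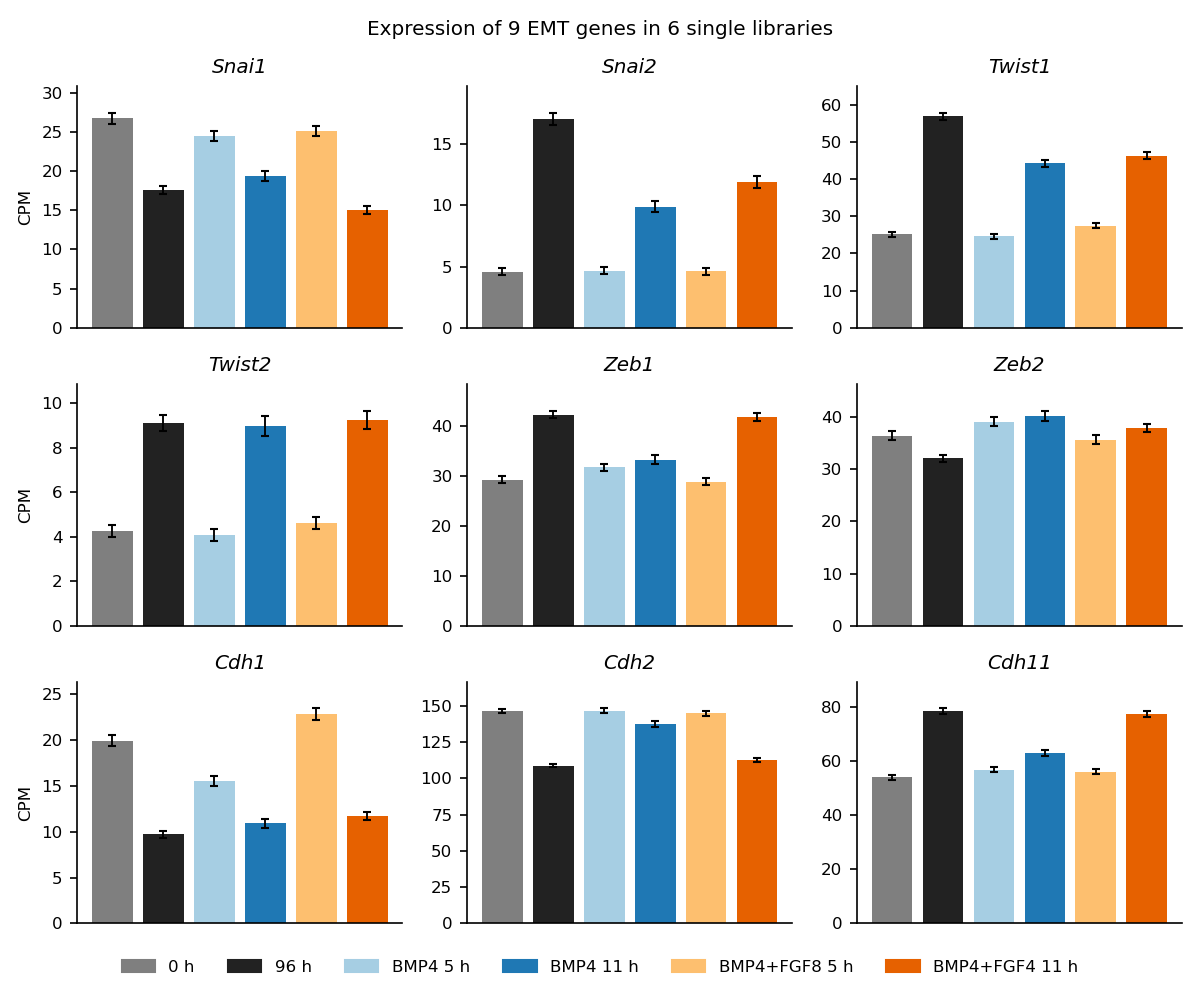
CPM of the 9 genes in the 6 single libraries, 1 panel per gene, with bars starting at 0 and error lines for the exact 95% Poisson counting interval. Snai2, Twist1 and Twist2 are low in the 0 h and both 5 h libraries and higher in the other 3, while Snai1 and Cdh1 have the opposite order of these groups.

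The Snail family genes differed in opposite directions between the 0 h and 5 h libraries and the 96 h and 11 h libraries. Snai2 (Slug; chr16:14705852-14709385, plus strand, GRCm38), which is used in neural crest and mesenchyme as well as mesoderm, had 4.60 CPM at 0 h, 17.1 at 96 h, 4.68 with BMP4 at 5 h, 9.90 with BMP4 at 11 h, 4.63 with BMP4 and FGF8 at 5 h and 11.9 with BMP4 and FGF4 at 11 h. It was low in the 0 h library and both 5 h libraries, whose intervals overlapped, and higher in the 96 h and both 11 h libraries. Snai1 (Snail), which mouse embryos need for mesoderm cells to lose E-cadherin at gastrulation, had 26.7 CPM at 0 h, 17.6 at 96 h, 24.5 with BMP4 at 5 h, 19.4 with BMP4 at 11 h, 25.1 with BMP4 and FGF8 and 15.0 with BMP4 and FGF4. Its 3 highest libraries were the 3 in which Snai2 was lowest. Snai1 was not called in any comparison, and its log2 ratio of -0.59 for 96 h over 0 h lay within the central 90% of all genes, -0.64 to 0.82. Both genes were lower with BMP4 and FGF4 at 11 h than at 96 h. In counts per kb of annotated exon, Snai2 was 0.138 (0.129 to 0.148) of Snai1 at 0 h and 0.779 (0.748 to 0.812) of it at 96 h. The same ratio was 0.153 and 0.148 in the BMP4 and the BMP4 with FGF8 5 h libraries, 0.41 with BMP4 at 11 h and 0.637 with BMP4 and FGF4 at 11 h. Snai1 thus stayed above Snai2 per length in all 6 libraries, with the smallest gap at 96 h.

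The Twist genes had like profiles. Twist1 (chr12:33957671-33959829, plus strand), a factor of head, limb and sclerotome mesenchyme, had 25.1 CPM at 0 h, 56.8 at 96 h, 24.6 with BMP4 at 5 h, 44.2 with BMP4 at 11 h, 27.4 with BMP4 and FGF8 at 5 h and 46.2 with BMP4 and FGF4 at 11 h. Twist2 (Dermo1; chr1:91801461-91848028, plus strand), its close relative in dermal and other mesenchyme, had 4.25, 9.12, 4.05, 8.95, 4.61 and 9.24 CPM in the same order of libraries. Both were low in the 0 h and 5 h libraries and higher in the other 3, with no library out of place. Twist1 differed among the high libraries, being 1.29-fold (1.25 to 1.32) lower with BMP4 at 11 h than at 96 h, whereas the Twist2 intervals of these 3 libraries overlapped. Per kb of exon, Twist2 was between 0.0823 and 0.104 of Twist1 in every library. The exons of Twist2 share 1477 bases with Gm29100, annotated on the opposite strand, and since the strand setting of the counting is not given in the sources used here, reads of the pair cannot be told apart.

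The Zeb genes varied least among the factors, with no call in any comparison. Zeb1 had 29.3 CPM at 0 h, 42.3 at 96 h, 31.7 with BMP4 at 5 h, 33.3 with BMP4 at 11 h, 28.8 with BMP4 and FGF8 at 5 h and 41.9 with BMP4 and FGF4 at 11 h. Zeb2 (Sip1), which is also a factor of neural crest and neural development, had 36.5, 32.1, 39.1, 40.3, 35.7 and 37.9 CPM in the same order. Zeb1 was highest and Zeb2 lowest in the 96 h library, so that the ratio of Zeb1 to Zeb2 per kb of exon was 1.56 (1.51 to 1.61) at 0 h and 2.56 (2.49 to 2.63) at 96 h. In the BMP4 with FGF4 11 h library this ratio was 2.14, and in the remaining 3 libraries it lay between 1.57 and 1.60. Its size depends on the annotated exon lengths, 10266 bases for Zeb1 and 19942 for Zeb2, which the intervals do not cover. In plain counts the ratio was 0.803 (0.776 to 0.83) at 0 h and 1.32 (1.28 to 1.35) at 96 h. Antisense annotation overlaps both genes, with 653 exon bases shared between Zeb2 and Zeb2os and 198 between Zeb1 and Gm10125, and the same limit on strand holds.

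Of the 3 cadherins, Cdh1 was the lowest per kb and varied most, by 2.35-fold over the 6 libraries. Cdh1 (chr8:106603351-106670246, plus strand) had 19.9 CPM at 0 h, 9.72 at 96 h, 15.5 with BMP4 at 5 h, 10.9 with BMP4 at 11 h, 22.8 with BMP4 and FGF8 at 5 h and 11.7 with BMP4 and FGF4 at 11 h. It was highest in the 0 h and 5 h libraries and differed among these 3 beyond counting error. Cdh2 had 146 CPM at 0 h, 109 at 96 h, 147 with BMP4 at 5 h, 137 with BMP4 at 11 h, 145 with BMP4 and FGF8 at 5 h and 112 with BMP4 and FGF4 at 11 h. The 96 h and BMP4 with FGF4 libraries were the low ones, and the 0 h and 5 h libraries overlapped. Cdh11 had 54.0, 78.5, 56.8, 63.0, 56.1 and 77.4 CPM in the same order, with those same libraries highest. Cdh1 and Cdh2 were thus both lower at 96 h than at 0 h, and the Cdh1 to Cdh2 ratio per kb was 0.24 (0.233 to 0.248) at 0 h and 0.158 (0.151 to 0.164) at 96 h. Over the same time the Cdh11 to Cdh2 ratio per kb went from 0.334 (0.327 to 0.342) to 0.653 (0.642 to 0.665).

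Genes were compared with each other per kb of annotated exon (GENCODE M21, GRCm38). This length joins the exons of all annotated transcripts of a gene and can exceed the transcript expressed. The order between genes therefore depends on this choice of length. At 0 h the order was Cdh2 with 18.1 CPM per kb, Snai1 with 16.5, Twist1 with 15.4, Cdh11 with 6.07, Cdh1 with 4.36, Zeb1 with 2.85, Snai2 with 2.28, Zeb2 with 1.83 and Twist2 with 1.34. At 96 h Twist1 stood first with 34.9 CPM per kb, ahead of Cdh2 with 13.5, Snai1 with 10.8, Cdh11 with 8.81, Snai2 with 8.45, Zeb1 with 4.12, Twist2 with 2.87, Cdh1 with 2.13 and Zeb2 with 1.61. Twist1 moved from the third to the first place and Cdh1 from the fifth to the eighth.

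After 96 h without growth factor, 3 of the factors were higher and 1 cadherin was lower than at 0 h. Snai2 rose 3.71-fold (3.46 to 3.98), Twist1 2.26-fold (2.19 to 2.33) and Twist2 2.15-fold (1.99 to 2.32), which are log2 ratios of 1.78, 1.16 and 1.02 after the 0.5 CPM was added. Cdh1 fell 2.05-fold (1.95 to 2.15). These are 3 of 9 members called higher, where 3.82% of all genes were, and 1 of 9 called lower, where 2.34% were. The other 5 had log2 ratios between -0.59 (Snai1) and 0.53 (Cdh11), and the median over the 9 was 0.52 beside -0.0018 over all genes. The Cdh1 log2 ratio of -1.0002 lies at the threshold. It was -0.90 with 2 CPM added and -0.996 where the columns were placed by the 0 h library only, and either ends the call. Twist2 likewise lost its call with 2 CPM added, at 0.83.

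**Figure D2:**
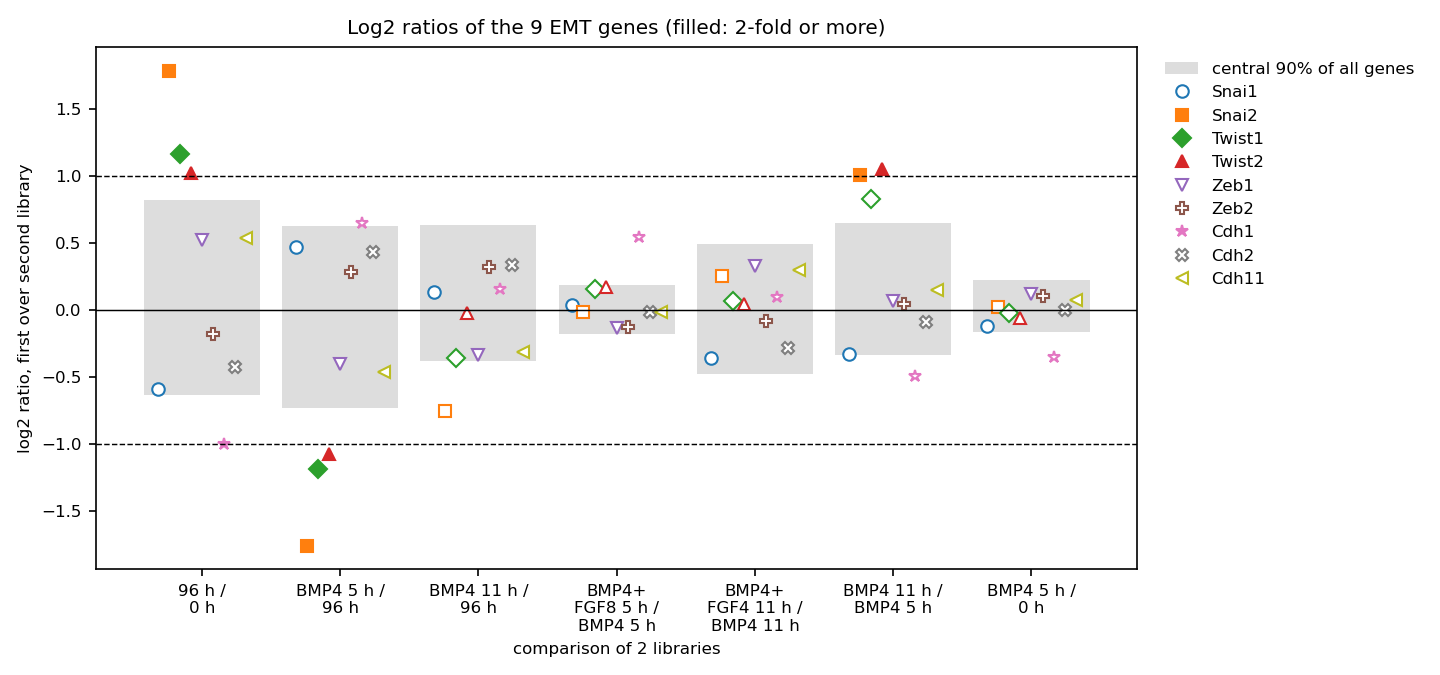
Log2 ratios of the 9 genes (y axis, after adding 0.5 CPM) in the 7 comparisons of 2 libraries (x axis), with filled symbols for calls, dashed lines at 2-fold and grey boxes for the central 90% of all 13819 genes. Snai2, Twist1 and Twist2 lie above the box for 96 h over 0 h and below it for BMP4 5 h over 96 h, and Cdh1 lies above the box for BMP4 with FGF8 over BMP4.

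Markers of other cell types moved with these genes between 0 h and 96 h. The 14 placed of 15 listed fibroblast markers, which the feeder layer could supply, summed to 196.7 CPM at 0 h and 875.05 CPM at 96 h, and 10 of 13 analysed were called higher. Collagen genes Col1a1 and Col3a1 went from 19.4 to 192 and from 25.6 to 254 CPM. Lum and Postn went from 0.249 to 30.5 and from 2.62 to 102.7 CPM. These rising genes were named after their values were seen. The analysed markers without a call were Thy1 (0.665 and 0.425 CPM), Pdgfra (84.8 and 93.4 CPM) and Fbln2 (24.7 and 14.8 CPM). Mfap5, at 0.111 and 0.0372 CPM, was placed but not analysed. Lateral plate and heart markers summed to 55.9 and 191.8 CPM, with 7 of 8 higher, and endothelial markers to 21.1 and 136.4 CPM, with 12 of 13 higher. Red blood cell markers, 7 placed of 11, summed to 13.1 and 2822 CPM, with 7 of 7 higher, and neural crest markers to 65.5 and 100.5 CPM, with 2 of 8 higher (Sox10 and Tfap2b). Myeloid markers were near absent, at 0.637 and 0.797 CPM for the 3 placed of 10. Neural tube markers summed to 111.7 and 125.8 CPM, with 2 of 8 higher (Olig2 and Neurog2), and epithelial tissue markers to 107.7 and 145.6 CPM, with 3 of 11 higher (Krt8, Krt18 and Sox17) and 3 lower (Epcam, Cldn6 and Esrp1). No placed marker was at 0 in either library. The part of these cells in the rise of Snai2, Twist1 and Twist2 was not tested.

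**Figure D3:**
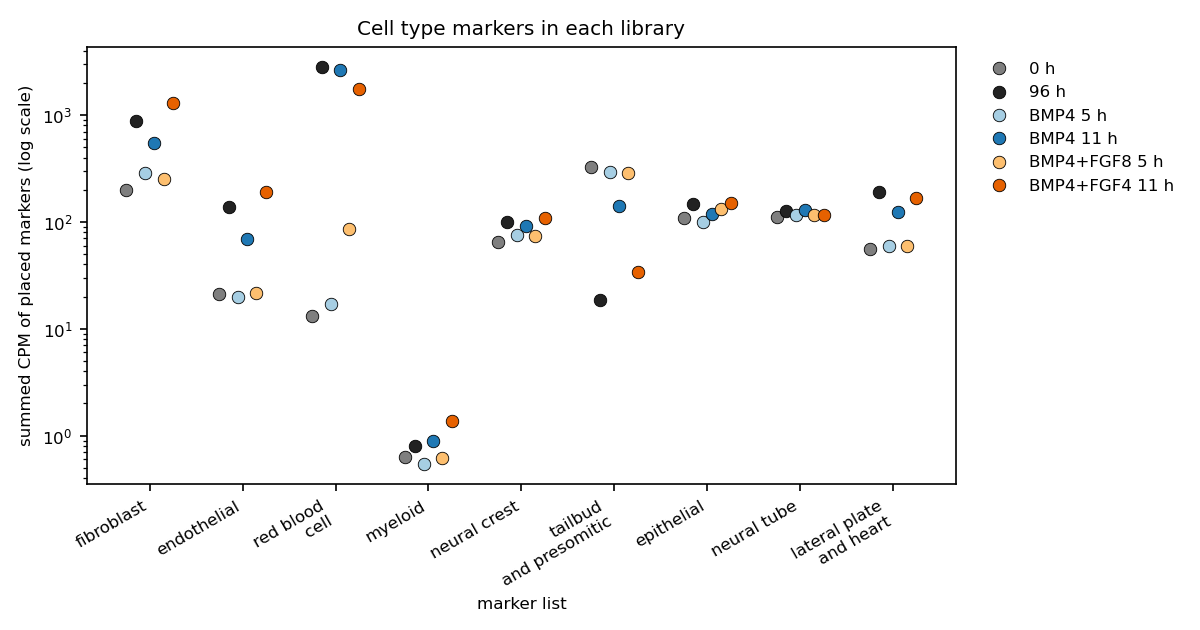
Summed CPM of the placed markers of 9 cell types (x axis) in each library (y axis, log scale, 1 point per library). The 96 h and both 11 h libraries lie above the 0 h and 5 h libraries for fibroblast, endothelial, red blood cell and lateral plate markers and below them for tailbud markers.

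Between the libraries labelled BMP4 5 h and 96 h, 3 of the 4 members called between 96 h and 0 h were called again, and Cdh1 was not. Snai2 was 3.64-fold (3.4 to 3.9), Twist1 2.31-fold (2.24 to 2.38) and Twist2 2.25-fold (2.08 to 2.43) lower with BMP4 at 5 h than at 96 h. These 3 of 9 members called lower stand beside 3.23% of all genes, and none was called higher, beside 2.21%. The median log2 ratio of the 9 was -0.41, against -0.0046 over all genes, and the Twist2 value of -1.08 became -0.88, without a call, when 2 CPM were added. Cdh1 was 1.60-fold (1.52 to 1.68) and Snai1 1.39-fold (1.34 to 1.45) higher with BMP4, short of 2-fold. Against the 0 h library the same BMP4 5 h library gave 0.98-fold for Twist1, 0.953-fold for Twist2 and 1.02-fold for Snai2, with all 3 intervals including 1. None of the 9 was called between BMP4 5 h and 0 h, beside 0.297% of genes higher and 0.0724% lower, and the largest difference was Cdh1, 1.28-fold (1.23 to 1.34) lower with BMP4. The comparisons with 96 h and with 0 h share the BMP4 5 h library, and the BMP4 5 h and 0 h comparisons with 96 h share the 96 h library. Fibroblast markers summed to 284.9 CPM with BMP4 at 5 h, with 6 of 13 lower than at 96 h and 2 higher (Thy1 and Fbln2). Against 0 h the same markers were called higher for 6 of 13 (Lum, Postn, Dcn, Thy1, Loxl1 and Ogn), with a median log2 ratio of 0.78. Other markers differed from 96 h more uniformly, with 7 of 8 lateral plate and heart, 12 of 13 endothelial and 7 of 7 red blood cell markers lower with BMP4 at 5 h and 10 of 10 tailbud markers higher, and none of these 4 lists gave a call against 0 h. Of the epithelial tissue markers 3 of 11 were lower than at 96 h and of the neural tube markers 2 of 8, again with no call against 0 h. The part of these cells in the lower Snai2, Twist1 and Twist2 was not tested.

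With BMP4 for 11 h none of the 9 genes differed 2-fold from the 96 h library, beside 2.16% of genes called higher and 0.268% lower. Snai2 came closest, at 1.72-fold (1.63 to 1.82) lower with BMP4, and Cdh2 was 1.26-fold (1.24 to 1.29) higher. Twist2, at 0.982-fold (0.92 to 1.05), did not differ beyond counting error. The median log2 ratio of the 9 was -0.03, against -0.02 over all genes. Placed on the path from 0 h (0%) to 96 h (100%) on the log2 scale, this library stood at 97.5% for Twist2, 69.0% for Twist1 and 57.6% for Snai2, and at 84.3% for Cdh1. Over all genes called higher at 96 h the median was 66.1%, with the middle 50% of genes from 57.1% to 77.9%, and over those called lower it was 43.1%, with the middle 50% from 28.9% to 55.4%. These positions have no interval, and none is given for the 5 members that differed by less than 2-fold between 0 h and 96 h. The placement of the growth factor columns favours values between both untreated libraries. Positions between 0% and 100%, of members and of all genes, are therefore favoured by the method.

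Between the BMP4 libraries, Snai2 was 2.11-fold (1.95 to 2.29) and Twist2 2.21-fold (2.03 to 2.4) higher at 11 h than at 5 h. They are 2 of 9 called higher, beside 2.31% of all genes, and no member was called lower, beside 0.311%. Twist1 was 1.79-fold (1.73 to 1.86) higher and Cdh1 1.42-fold (1.35 to 1.51) lower, both short of 2-fold. The median log2 ratio of the 9 was 0.07, against -0.01 over all genes. The calls of Snai2 and Twist2 are near the threshold, with log2 ratios of 1.00 and 1.05. They ended at 0.83 and 0.86 with 2 CPM added, and at 0.91 and 0.96 under scaling by the totals of the placed genes, where the median gene moved to -0.11. Lateral plate and heart markers were called higher at 11 h for 7 of 8 genes and fibroblast markers for 5 of 13, and their sums were 123.3 and 542.8 CPM at 11 h. Red blood cell markers summed to 17.1 CPM at 5 h and 2646 CPM at 11 h, with 7 of 7 higher, and endothelial markers to 20.03 and 69.8 CPM, with 10 of 13 higher. Neural tube markers were higher for 2 of 8, and tailbud markers lower for 6 of 10. The part of these cells in the higher Snai2 and Twist2 was not tested.

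Adding FGF8 to BMP4 for 5 h changed none of the 9 genes 2-fold, where 0.174% of all genes were called higher and 0.0217% lower. The largest difference was Cdh1, at 22.8 against 15.5 CPM, 1.47-fold (1.41 to 1.53) higher with FGF8. Its log2 ratio of 0.54 lay outside the central 90% of all genes, from -0.18 to 0.19, and 99.4% of genes had a smaller ratio in either direction. Snai1, Snai2, Cdh2 and Cdh11 were within 1.03-fold, and Twist1 (1.11-fold), Twist2 (1.14-fold), Zeb1 (0.908-fold) and Zeb2 (0.913-fold) within the central 90%. Other genes of epithelial junctions lay on the same side as Cdh1. Of the 19 such genes, 15 had log2 ratios above 0.19, none was called, and their median was 0.34 against 0.01 over all genes. Claudin genes Cldn4 and Cldn6, chosen here after their values were seen, had 10.2 and 27.8 CPM with FGF8 against 6.91 and 18.8 CPM with BMP4 alone. Against 0 h, the same BMP4 library had 8 of these 19 below the central 90% and Cdh1 at 15.5 against 19.9 CPM, and both comparisons share that library. Epithelial tissue markers summed to 131.3 CPM with FGF8 and 98.9 CPM with BMP4 alone, and the endoderm gene Foxa1 stood at 5.97 and 3.31 CPM. Red blood cell markers were called higher with FGF8 for 4 of 7 genes, summing to 86.6 against 17.1 CPM. The part of these cells in the Cdh1 difference was not tested.

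With FGF4 in addition to BMP4 for 11 h, none of the 9 genes differed 2-fold, beside 1.15% of genes higher and 0.637% lower. Zeb1 was 1.26-fold (1.22 to 1.3) and Cdh11 1.23-fold (1.2 to 1.26) higher with FGF4. Snai1 was 1.29-fold (1.23 to 1.36) and Cdh2 1.22-fold (1.2 to 1.25) lower. All 9 lay within the central 90% of all genes, -0.48 to 0.49. Twist1 and Twist2 were at 1.05-fold (1.01 to 1.08) and 1.03-fold (0.964 to 1.1). The median log2 ratio of the 9 was 0.06, against -0.02 over all genes. Fibroblast markers summed to 1305 CPM with FGF4 and 542.8 CPM with BMP4 alone, with 9 of 13 called higher. Endothelial markers summed to 191.5 and 69.8 CPM, with 8 of 13 higher, and tailbud markers to 34.0 and 142.1 CPM, with 9 of 10 lower. The part of these cells in the values of the 9 genes was not tested.

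Related genes were read from 8 lists and compared between 96 h and 0 h, where 3.82% of all genes were called higher and 2.34% lower. The epithelial junction and keratin genes divided. Of 19 analysed, 9 fell (Epcam, Cldn3, Cldn4, Cldn6, Cldn7, Ocln, Crb3, Spint1 and St14) and 2 keratin genes rose, and the list median was -0.90 against -0.0018 over all genes. Spint1, a membrane inhibitor of serine proteases in epithelia, went from 8.31 to 2.52 CPM, whereas the keratins of simple epithelia Krt8 and Krt18 went from 17.7 to 53.1 and from 17.1 to 41.0 CPM. Of 7 epithelial-state factors analysed only Esrp1, a splicing factor of epithelial cells, was called, falling from 11.3 to 4.95 CPM, and the list median was -0.77.

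Mesenchymal genes did not move as one. Of 10 analysed, 3 rose, namely the matrix genes Tnc (1.52 to 18.7 CPM) and Sparc (41.0 to 92.6 CPM) and the hyaluronan receptor gene Cd44 (3.58 to 7.78 CPM), and the list median was 0.13. Vim (vimentin) had 124 CPM at 0 h and 163 at 96 h, and Fn1 (fibronectin) had 528 and 307 CPM, neither of them called and both named after their values were seen. TGF-beta signals induce Snai and Zeb genes in many epithelial cells, but RNA levels do not measure signalling. Of the genes of TGF-beta ligands, receptors and Smads, 4 of 9 were called higher, beside 3.82% of all genes. These were Tgfb2 (6.04 to 17.7 CPM), Tgfb1 (1.67 to 5.77 CPM), Tgfbr2 (2.005 to 5.74 CPM) and the coreceptor gene Tgfbr3 (4.55 to 19.4 CPM), and the list median was 0.49. Catenins, the intracellular partners of cadherins, gave 0 calls of 7, with Ctnnb1 at 414 and 404 CPM. The corepressors and regulators of Snail, Zeb and Twist proteins gave 0 of 12, between -0.54 and 0.29, and other EMT transcription factors 0 of 11, where Foxc2 (-0.98) and Foxc1 (-0.79) were lowest and Prrx2 (0.87) and Prrx1 (0.74) highest, also named after their values were seen. In lists of this size the shares over all genes amount to less than 1 call, so that counts of 0 are near the background.

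**Figure D4:**
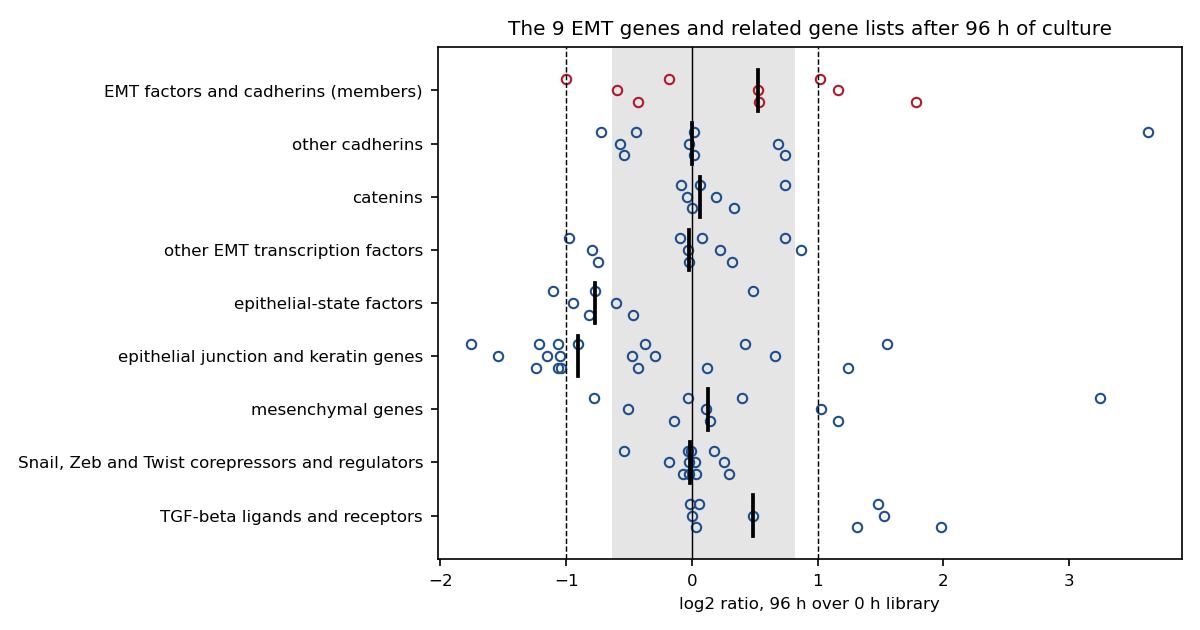
Log2 ratio of 96 h over 0 h (x axis, after adding 0.5 CPM) for each analysed gene of the 9 EMT genes (red) and 8 related lists (blue), with a black bar at each list's median, dashed lines at 2-fold and grey for the central 90% of all genes. Most epithelial junction genes lie below 0, with Krt8 and Krt18 at 1.55 and 1.24.

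In BMP4 5 h over 96 h, Ocln and Spint1 were higher, 2 of 19 epithelial junction and keratin genes, beside 2.21% of all genes. Taken over the 8 lists together, these 2 calls are near that share. Krt8 and Krt18, 2 of the same 19, were lower, beside 3.23% of all genes. So were Tgfb1, Tgfb2 and Tgfbr3, 3 of 9 TGF-beta genes, and Cdh5, 1 of 10 other cadherins. In BMP4 11 h over 96 h Cdh5 alone was lower, 1 of 10 other cadherins, beside 0.268%. Adding FGF4 was accompanied by higher Tgfbr2 and Tgfbr3 (2 of 9), Cdh5 (1 of 10) and Tnc (1 of 10 mesenchymal genes). Tnc had 57.9 against 16.3 CPM, and the share of all genes called higher was 1.15%. Adding FGF8 was accompanied by no call in the 8 lists, beside 0.174% of genes higher and 0.0217% lower. Tnc was also the only gene of the 8 lists called between BMP4 5 h and 0 h, at 10.8 against 1.52 CPM, beside 0.297% of genes higher. Between BMP4 11 h and 5 h, Tgfb1, Tgfb2 and Tgfbr3 (3 of 9) and Cdh5 (1 of 10) were higher, beside 2.31%.

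The make-up of the cadherin family was read from the 17 classical and related cadherins placed, as shares of their summed CPM per kb. Cdh2 held the largest share in every library, from 27.8% with BMP4 and FGF4 to 42.9% with BMP4 at 5 h, with 41.3% at 0 h and 30.7% at 96 h. Cdh11 held 13.8% at 0 h and 20.1% at 96 h, and Cdh1 held 9.92% and 4.84%. Cdh3 (P-cadherin), which is not among the 9 genes, varied little, with 16.3% and 16.5%. Cdh5, the cadherin of endothelial junctions, held 0.685% at 0 h, 11.6% at 96 h and 14.0% with BMP4 and FGF4, and was the only one of the 10 other cadherins analysed to be called, at 1.27 CPM at 0 h and 21.3 CPM at 96 h. It is 1 of the endothelial markers whose sums are given above.

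**Figure D5:**
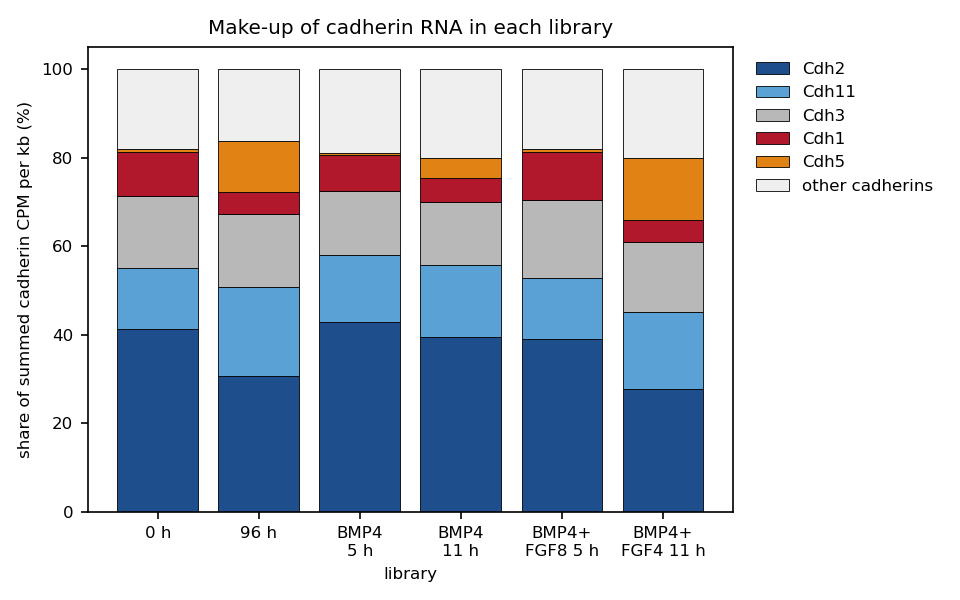
Share of summed cadherin CPM per kb (y axis, percent) held by 5 named cadherins and the 12 others in each library (x axis). The 12 others include Cdh24, which held a larger share than Cdh1 in every library. Cdh2 is the largest part everywhere, and Cdh5 is visible in the 96 h and both 11 h libraries.

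The genes whose profile over the 6 libraries was most like that of each called member were found among 565 candidates, by the root mean square distance of centred log2 values. For Snai2 they were Hdac9 (distance 0.07) and Hand2 (0.09), for Twist1 Sertad4 (0.06) and Clmp (0.07), and for Twist2 Pitx1 (0.05) and Neurog2 (0.08). For Cdh1 they were Esrp1 (0.10) and Spint2 (0.14). Hand2, a factor of lateral plate mesoderm, had 8.71 CPM at 0 h and 26.9 at 96 h, while Spint2 had 15.5 and 8.05 CPM. The profiles rest on 6 single libraries.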

How the data were processed

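Per the labels' protocols, the 6 libraries were made from total RNA by a strand-keeping method. The authors deposited raw read counts by gene, without normalization. Tools named in the submitters' processing notes, with no roles, are STAR 2.4.0e, cutadapt, DESeq and HTSeq, beside the build mm10, and how reads were counted is not given in the sources used here. Even numbers make up 65.4% to 70.9% of the values from 1 to 20, and counting both mates of a pair would make the intervals too narrow.

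The 4 growth factor columns hold more values (19415 to 19826) than the 19342 names and are out of register with them. Each was matched to the sorted names by an order-preserving alignment that charges a value for lying outside the range of both untreated columns. A gene was kept where the next best row cost 5 units more or above, where its neighbours alone gave the same row, and where no nearby row fitted as an exchange, with settings chosen on simulated columns and after seeing the data. This kept 16674 genes with 98.5% to 98.6% of the counts. The 9 genes were placed and kept in all 4 columns. Their neighbours alone gave the same row in 36 of 36 cases, which the rule requires of every kept gene and is no separate check.

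Counts were scaled by TMM (edgeR 4.0.16, R 4.3.3), and 13819 genes that reached 1 CPM in some library were analysed. Log2 ratios add 0.5 CPM, which understates changes of weak genes. Ratio intervals are Clopper-Pearson and level intervals exact Poisson, both 95%. At these depths 3 counts equal 0.0110 to 0.0167 CPM. Placement and calls were tried on simulated data with known changes, which share the assumptions of the methods. Most simulated levels were drawn between both untreated columns, and the simulated calls had counting error only. The simulations therefore do not check those assumptions. Members and lists were chosen with earlier results of these data known. From each list up to 3 called genes with a mean of at least 5 CPM were named, those with the interval farthest from 1, and others by count or as stated. For each called member the 2 most similar genes were named. The alternatives tried were 2 CPM added, DESeq2 1.42.0 size factors, totals of placed genes, other filters and other placements. Exon lengths come from GENCODE M21 and promoters from RefSeq GRCm38.p6.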

Additional observations from a re-analysis of the deposited data

How the results depend on the processing

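Of the ratios of the 9 genes under 8 alternatives set at the start and 1 chosen after seeing the data (scaling and filtering without the 5 h libraries, for the 3 comparisons that use neither of them), 519 kept their direction and call, 8 lost the call and 4 changed sign. Part of the 519 was fixed in advance. The other filters cannot change a ratio of these genes, and placement without a gene's own row returned the same counts. Each of those settings gave 63 unchanged ratios. Most of the 519 were also ratios without a call that stayed without one. The lost calls were, with 2 CPM added, Twist2 (0.83) and Cdh1 (-0.90) in 96 h over 0 h, Twist2 (-0.88) in BMP4 5 h over 96 h, and Snai2 (0.83) and Twist2 (0.86) in BMP4 11 h over 5 h. Under totals of the placed genes Snai2 (0.91) and Twist2 (0.96) in BMP4 11 h over 5 h lost theirs, and Cdh1 in 96 h over 0 h did where columns were placed by the 0 h library only (-0.996). The sign changes were all in values near 0: Cdh2 in BMP4 5 h over 0 h with DESeq2 size factors (-0.0010), and, under totals, Zeb2 with FGF4 over BMP4 (0.0561) and Zeb1 (-0.0342) and Zeb2 (-0.0602) in BMP4 11 h over 5 h. Totals moved the median gene to 0.11 with FGF4 over BMP4 and to -0.11 in BMP4 11 h over 5 h, and the cause of these changes was not tested beyond that shift.

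Of the counts of genes called, 29 moved by over 1.5 times. Higher and lower calls with 2 CPM added were 289 and 184 (528 and 323 with 0.5 CPM) for 96 h over 0 h, 181 and 254 (305 and 446) for BMP4 5 h over 96 h, 155 and 14 (298 and 37) for BMP4 11 h over 96 h, 13 and 0 (24 and 3) for FGF8, 56 and 50 (159 and 88) for FGF4, 137 and 17 (319 and 43) for BMP4 11 h over 5 h, and 15 and 1 (41 and 10) for BMP4 5 h over 0 h. With at least 5 CPM required, fewer genes were tested, and higher and lower calls were 339 and 211 for 96 h over 0 h, 15 and 0 for FGF8, 197 and 27 for BMP4 11 h over 5 h, and 27 and 3 for BMP4 5 h over 0 h, with 281 lower for BMP4 5 h over 96 h, 193 higher for BMP4 11 h over 96 h and 101 higher for FGF4. Placement by the 96 h library only left 52 lower for FGF4 and 26 lower for BMP4 11 h over 5 h, and placement by the 0 h library only left 22 lower for BMP4 11 h over 96 h and 28 lower for BMP4 11 h over 5 h.

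No paired analysis was possible because each condition has 1 library. The depth limits little for these genes, since each had at least 884 counts per library. What limits them is the lack of replicates and of untreated libraries of 101 h and 107 h, the feeder cells in the culture, and the placement of the growth factor columns, which favours values between both untreated libraries.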
